A study of Homo sapiens with 3 samples.

Results

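The genes described here are GLDC, which encodes the decarboxylase of the mitochondrial glycine cleavage system, and 9 enzymes of serine, glycine and one-carbon metabolism: AMT, GCSH, DLD, PHGDH, PSAT1, SHMT1, SHMT2, MTHFD2 and MTHFD1L. They were taken by gene symbol or older alias from the table of non-normalized probe signals, in which all 10 genes were named, by 15 of the 48803 probes. The set was chosen by the measured difference of GLDC between resistant and parental cells, with the enzymes of its pathway added, so the differences of the 10 genes from parental cells are given as a description without a test. Gene expression was measured on Illumina HumanHT12 v3 arrays in HCC827, a human lung adenocarcinoma cell line that carries and depends on an activating EGFR mutation, and in HCC827-BR1 and HCC827-BR2, called clone 1 and clone 2 here. Both were derived from HCC827 by culture in BIBW2992, also named afatinib, which blocks the kinases of EGFR and ERBB2 irreversibly, with the concentration raised to 2 µM over 3 to 4 months, and each was set up from an individual clone. There was 1 array of parental cells, labelled as sensitive to BIBW2992, and 1 array of each resistant clone, with no repeat array. Whether the clones were still in BIBW2992 when harvested is not stated in the labels, so effects of selection, of cloning, of longer culture and of the drug itself cannot be told apart.

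Glycine cleavage takes place in mitochondria. The decarboxylase encoded by GLDC removes the carboxyl group of glycine, the lipoyl carrier protein encoded by GCSH passes on the remaining aminomethyl group, the aminomethyltransferase AMT releases ammonia and loads the one-carbon unit onto tetrahydrofolate, and the dehydrogenase DLD reoxidises the carrier. Serine is made from a glycolytic intermediate by PHGDH, PSAT1 and PSPH, and the hydroxymethyltransferases SHMT1, in the cytosol, and SHMT2, in mitochondria, turn it into glycine and a folate-bound one-carbon unit. MTHFD2 and MTHFD1L carry mitochondrial one-carbon units on to formate, which leaves for the synthesis of purines and thymidylate. GLDC has been studied in non-small cell lung cancer as a gene of tumour-initiating cells.

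The median probe signal was 60.4 on the parental array, 57.3 on that of clone 1 and 61.2 on that of clone 2. A probe was counted as above background where its signal exceeded a threshold set by the dim probes of its own array, which was 69.3 for parental cells, 66.1 for clone 1 and 70.7 for clone 2. With 1 probe standing for each gene, 11914 genes were above background on at least 1 array. Of 6 epithelial marker genes 5 were above background for parental cells, 5 for clone 1 and 4 for clone 2, and their summed signal was 46792, 8527 and 3539. NKX2-1, a transcription factor of lung epithelium, was above background in parental cells and in neither clone, and SFTPB and SFTPC were below background on all 3 arrays. NAPSA, the remaining lung marker, was above background on all 3, with signals of 2184 for parental cells, 133 for clone 1 and 81.3 for clone 2. The lower epithelial and lung markers accompany every difference between the clones and parental cells below, and their part in it was not tested. None of 6 fibroblast markers was above background on any array, with summed signals between 316 and 361. The endothelial markers VWF, CDH5, KDR and TEK and the leukocyte markers PTPRC and CD3E were likewise below background on all arrays, whereas PECAM1, CD14, CD68 and LCP1 were above it on all 3. In RNA from whole cultures, fewer cells that express a gene and less RNA per cell cannot be told apart.

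GLDC had a deposited signal of 84.8 for parental cells, 4277 for clone 1 and 6350 for clone 2. Both clones were far above parental cells, in which the signal was 1.22 times the background threshold. On the normalized log2 scale the values were 5.79, 12.12 and 12.63, which puts clone 1 higher than parental cells by 6.32 and clone 2 by 6.84, or 80-fold and 114-fold. The mean of the clones was 95.7-fold above parental cells. As plain ratios of the deposited signals, taken before background correction, the same differences were 50.5-fold and 74.9-fold. Ranked from the highest difference, GLDC was the gene at place 9 of 11914 in clone 1 and at place 8 in clone 2. GLDC is represented by 1 probe, so no second probe could be set beside it, and no source used here gives the probe's position in the transcript. Between the clones GLDC differed by 0.52 on the log2 scale, or 1.43-fold, and 19.1% of all genes lay farther apart.

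**Figure D1:**
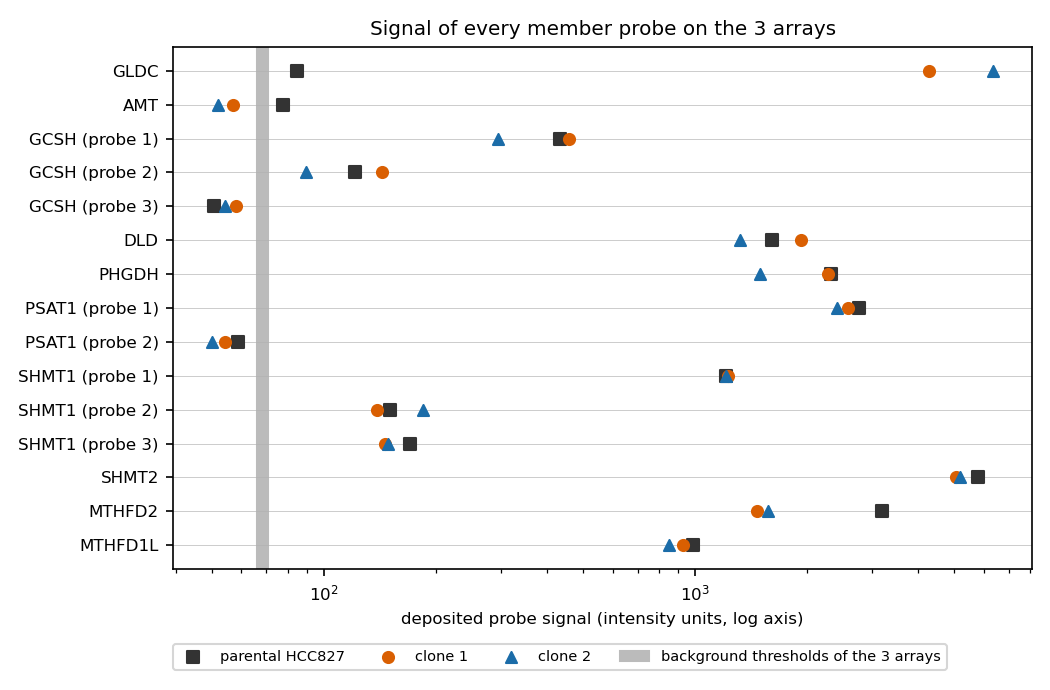
Deposited signal of each of the 15 probes of the 10 genes on a log axis in intensity units, with squares for parental HCC827, circles for clone 1 and triangles for clone 2, 1 array each. The grey band spans the background thresholds of the arrays, from 66.1 to 70.7. GLDC lies at 84.8 in parental cells and at 4277 and 6350 in the clones, MTHFD2 is lower in both clones, and AMT lies above the band in parental cells alone.

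By size, 1 of the 10 genes, GLDC, was at least 2-fold higher than parental cells in both clones, as were 4.68% of all genes. At least 2-fold lower in both clones were 0 of the 10, against 5.27% of all genes. Taking clone 1 alone, 1 gene was at least 2-fold higher and 0 were lower, where 6.95% and 7.31% of all genes were. Clone 2 had GLDC higher and AMT lower, against 6.77% and 8.17% of all genes. AMT was below background in clone 2, where its deposited signal before correction was 0.67 of the parental signal. On the log2 scale the 10 genes had a median difference from parental cells of 0.097 for clone 1 and -0.13 for clone 2, where the medians of all genes were 0.0082 and 0.0077. The other 9 genes lay between -0.97 and 0.42 for clone 1 and between -1.03 and 0.12 for clone 2, all far below GLDC.

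**Figure D2:**
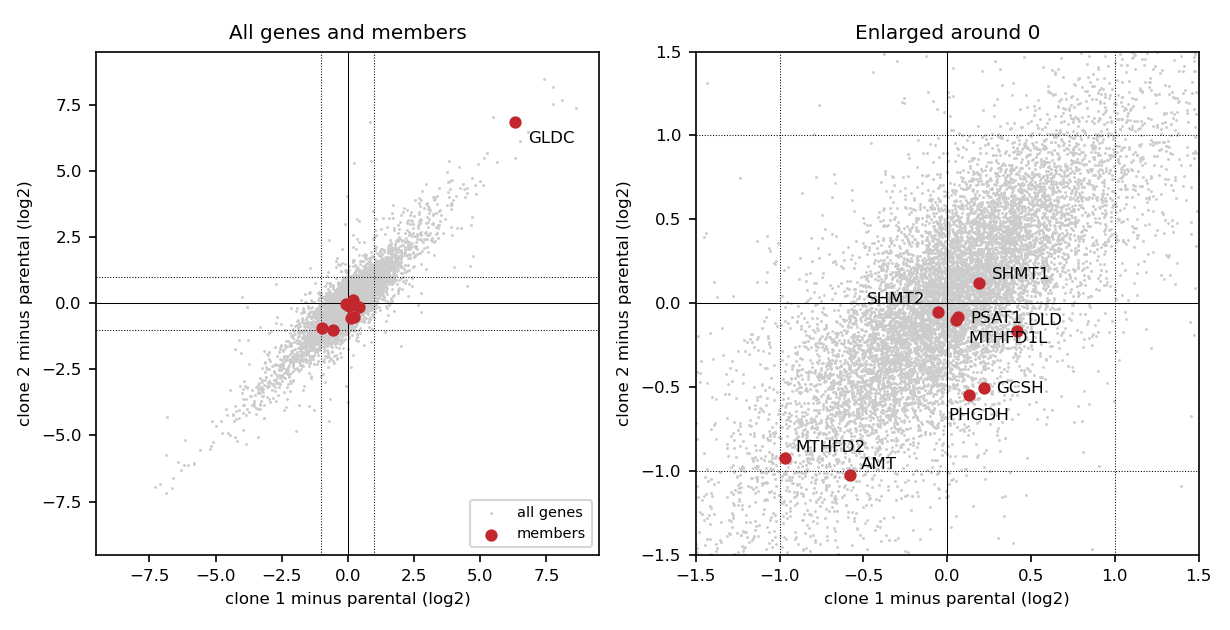
Log2 difference from parental cells in clone 1 (horizontal axis) and clone 2 (vertical axis) for all 11914 genes (grey) and the 10 genes described here (red), with dotted lines at a 2-fold difference. Left, GLDC lies at 6.32 and 6.84 while the other 9 lie near the centre. Right, the central part enlarged, where MTHFD2 and AMT are lowest and PSAT1, SHMT1, SHMT2 and MTHFD1L lie closest to 0. Both axes share the parental array, so the slope of the grey cloud is no sign of agreement.

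The start regions of 3 genes are printed for the sequence behind these values: GLDC as the gene with the large difference, MTHFD2 as the lowest gene with a signal above background on every array, and MTHFD1L as a gene of the same folate steps whose level lay near that of parental cells. Each runs from 250 bases before to 50 bases after the annotated start, 5′ to 3′ on the strand of the gene, and comes from RefSeq (GRCh38.p14). Entries were found for 9 of the 10 genes. The intervals are chr9:6645680-6645979 on the minus strand for GLDC, chr2:74198365-74198664 on the plus strand for MTHFD2, and chr6:150866236-150866535 on the plus strand for MTHFD1L, which has several annotated starts. Capitals mark matches on either strand to TGATGNAA, the core recognised by ATF4 with a C/EBP partner, CACGTG, the E-box bound by MYC, and TGACNNNGC, the core of the antioxidant response element bound by NRF2.
GLDC: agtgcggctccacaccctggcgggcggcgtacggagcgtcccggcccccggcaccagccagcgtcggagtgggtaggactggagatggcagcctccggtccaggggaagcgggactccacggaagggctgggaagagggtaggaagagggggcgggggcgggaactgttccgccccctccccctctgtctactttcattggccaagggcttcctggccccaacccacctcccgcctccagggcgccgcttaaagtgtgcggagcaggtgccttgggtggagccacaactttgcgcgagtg
MTHFD2: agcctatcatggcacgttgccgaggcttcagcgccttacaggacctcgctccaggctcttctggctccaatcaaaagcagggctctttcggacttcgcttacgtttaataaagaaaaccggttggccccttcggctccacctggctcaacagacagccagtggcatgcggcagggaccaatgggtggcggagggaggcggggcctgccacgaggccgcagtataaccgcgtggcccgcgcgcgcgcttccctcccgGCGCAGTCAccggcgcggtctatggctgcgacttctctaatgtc
MTHFD1L: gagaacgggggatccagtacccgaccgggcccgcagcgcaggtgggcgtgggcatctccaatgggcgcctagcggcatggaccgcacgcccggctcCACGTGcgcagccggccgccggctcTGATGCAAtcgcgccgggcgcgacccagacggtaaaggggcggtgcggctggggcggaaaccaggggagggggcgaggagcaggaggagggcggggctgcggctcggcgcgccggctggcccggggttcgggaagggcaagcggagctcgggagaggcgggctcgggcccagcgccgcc

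None of the 3 motifs occurs in the printed GLDC window. The MTHFD2 window holds 1 match to TGACNNNGC, on the reverse strand and beginning at base 7 of the transcript. The printed MTHFD1L window holds CACGTG beginning 154 bases and TGATGCAA beginning 129 bases before its annotated start. These distances depend on the start. In the window from chr6:150866083 the same sites begin 1 base before the start and at base 25 of the transcript. The MTHFD1L window from chr6:151006758 holds no match. GCSH, with a match to TGACNNNGC, was the only other gene of the set with a match in its window, and AMT, DLD, PHGDH, PSAT1 and SHMT1 had none. Of 35116 RefSeq windows of 300 bases, 3.62% hold TGATGNAA, 7.26% CACGTG and 13.3% TGACNNNGC, counting both strands. The GLDC window contains 22 CpG dinucleotides at 69% G and C, where the median window has 14 and 58.7%. A match or its absence describes these letters in this window alone.

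The partners of GLDC in glycine cleavage did not share its difference. AMT, the aminomethyltransferase, gave signals of 77.6 for parental cells, 56.8 for clone 1 and 52.0 for clone 2. It thus passed the background threshold only in parental cells, by a small margin, and the fold in parental cells over the clones is only bounded, at 1.08 or more, the lowest bound over the background corrections and normalizations tried. GCSH, the lipoyl carrier, had signals of 432 for parental cells, 457 for clone 1 and 294 for clone 2 on its brightest probe, with clone 2 the lowest. The log2 differences from parental cells were 0.22 in clone 1 and -0.51 in clone 2. A dimmer GCSH probe, at 122, 143 and 89.4, gave 0.46 and -0.50 and the same order of the arrays, and the remaining probe was below background throughout. DLD, the dehydrogenase that also serves the pyruvate and 2-oxoglutarate complexes, had signals of 1609, 1936 and 1324, and log2 differences of 0.42 for clone 1 and -0.17 for clone 2. Parental cells lay between the clones for both GCSH and DLD.

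Of the serine synthesis enzymes, PHGDH, which oxidises 3-phosphoglycerate in the first step, had signals of 2331 on the parental array, 2282 for clone 1 and 1496 for clone 2. Clone 2 was the lowest, at a log2 difference of -0.55 from parental cells, while clone 1 was at 0.13. PSAT1, the aminotransferase of the next step, had signals of 2759, 2575 and 2412 and log2 differences of 0.064 and -0.084. Its other probe, annotated to a second transcript, was below background on all arrays. PSPH, the phosphatase of the last step and not one of the 10 genes, had signals of 1532, 1031 and 343, and log2 differences of -0.42 for clone 1 and -2.13 for clone 2. PSPH lies on chromosome 7, with 5 detected genes between it and EGFR, whose signals were 11122 for parental cells, 5979 for clone 1 and 502 for clone 2. PSPH was singled out after its values had been seen, and the part of its position in its lower signal was not tested.

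SHMT1 and SHMT2, the cytosolic and the mitochondrial hydroxymethyltransferase, stayed near the parental level on their brightest probes. SHMT2 had signals of 5773, 5059 and 5163, with log2 differences of -0.055 for clone 1 and -0.053 for clone 2. SHMT1 had signals of 1212, 1230 and 1216, with log2 differences of 0.19 and 0.12. Its dimmer probes gave 0.019 and 0.46 at signals of 151, 139 and 185, and -0.12 and -0.14 at signals of 171, 146 and 149, so the probes did not share a direction. None of the SHMT1 and SHMT2 probes reached a 2-fold difference on either clone.

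In the mitochondrial folate steps the 2 enzymes differed. MTHFD2, the bifunctional dehydrogenase and cyclohydrolase, had signals of 3196 for parental cells, 1465 for clone 1 and 1569 for clone 2. Both clones were lower than parental cells and close to each other, with log2 differences of -0.97 and -0.93, just short of 2-fold after normalization, and 0.044 between the clones. The deposited signals of the clones were 0.458 and 0.491 of the parental signal before normalization. After median scaling in place of quantile normalization both passed 2-fold. That scaling also moved the median difference of all genes, from 0.011 to -0.079. MTHFD1L, the synthetase that releases formate, had signals of 988, 926 and 854 and log2 differences of 0.052 and -0.10. PSAT1, SHMT1, SHMT2 and MTHFD1L were the 4 genes of the set within 0.2 log2 units of parental cells in both clones, a width chosen after the values had been seen, where 13.9% of all genes were. MTHFD1L left that range after median scaling. RefSeq lists 7 pseudogenes of MTHFD2, 6 of GCSH and 4 of PSAT1, and whether the probes also detect these was not tested.

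Comparing the clones with each other, 7 of the 10 genes had a lower value in clone 2 than in clone 1, as did 50.3% of all genes, and 6 had with the mean of each gene's probes. None was at least 2-fold apart, where clone 2 was at least 2-fold higher for 1.81% of all genes and at least 2-fold lower for 1.96%. Clone 2 minus clone 1 was -0.73 for GCSH, -0.68 for PHGDH and -0.58 for DLD on the log2 scale, and 8.96%, 10.5% and 14.9% of all genes lay farther apart. AMT differed by -0.45 with both clones below background. SHMT2 differed by 0.0022 and MTHFD2 by 0.044, and 99.5% and 89.9% of all genes lay farther apart. Each clone was measured on 1 array, so these differences have no replicate check.

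GLDC was set beside its neighbours on chromosome 9, to show whether its difference is shared along the chromosome. The nearest detected genes on one side are UHRF2, which encodes a ubiquitin ligase, RANBP6 and BRD10, and on the other KDM4C, a histone demethylase gene, DMAC1 and PTPRD. Those on either side of GLDC had no such difference: UHRF2 was at -0.10 in clone 1 and 0.27 in clone 2, and KDM4C at -0.087 and -0.31, on the log2 scale. RANBP6 was at 0.16 and 0.96, BRD10 at -0.49 and -0.30, and DMAC1 at -0.89 and -0.080. PTPRD, a receptor tyrosine phosphatase gene, had signals of 53.0 for parental cells, 371 for clone 1 and 495 for clone 2. Its parental signal did not pass the threshold, so it was among the detected genes through the clones alone, and its fold is bounded at 5.90 or more. Limma called it higher (adjusted p = 0.0059, between 0.0015 and 0.0137 across the alternatives with a test), also without the filter on dim probes, where detection did not decide which genes were tested (adjusted p = 0.0015). With detection required on all arrays it had no test. Its other probe differed by 3.03 on the log2 scale. The remaining 5 neighbours were not called, with adjusted p-values from 0.480 to 0.909.

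**Figure D3:**
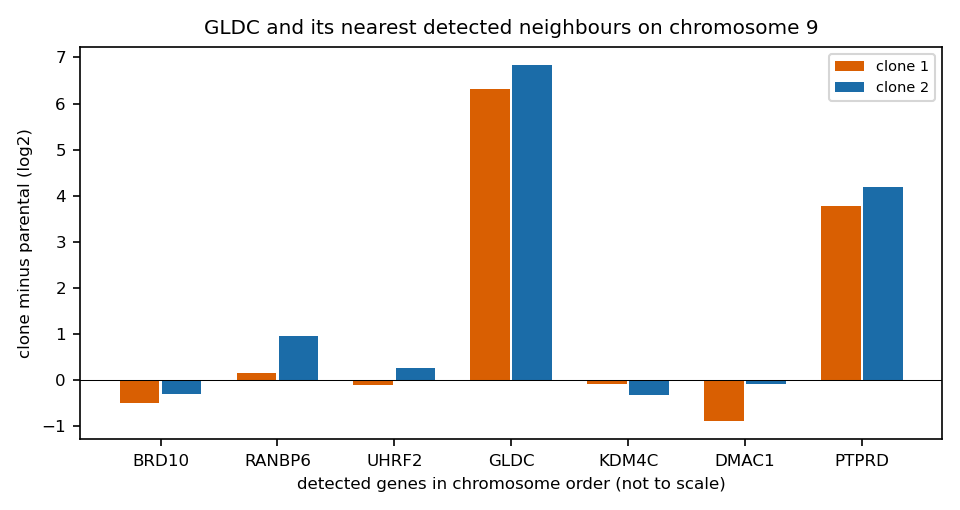
Log2 difference from parental cells in clone 1 and clone 2 (vertical axis, 1 array each) for GLDC and the 3 nearest detected genes on either side in chromosome order, not to scale. GLDC reaches 6.32 and 6.84 and PTPRD 3.79 and 4.18, and the genes between them, KDM4C and DMAC1, lie below 0 in both clones.

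The 5 genes whose pair of differences from parental cells lay closest to that of GLDC were ERVW-1, which encodes the envelope protein syncytin-1, IGFBP7, whose secreted product binds IGFs, TENM3, CLDN2 and SEMA6A. Likeness was measured over the 3 arrays as the distance between the pairs of log2 differences, and was 0.17 for ERVW-1, 0.61 for IGFBP7, 0.75 for TENM3, 0.86 for CLDN2 and 1.36 for SEMA6A. ERVW-1 had signals of 56.2 for parental cells, 2171 for clone 1 and 3702 for clone 2. All 5 were below background in parental cells, so their differences are set in part by the background. GLDC was above it there, at 1.22 times the threshold. Its mean difference also moved with the background correction, from 6.58 to 5.90 with a normexp offset of 50.

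The enzymes, transporters and regulators around these 10 genes were set beside the shares of all genes. Lists of related genes held 111 genes in all, of which 98 were named on the array, 81 were above background on at least 1 array and 17 on none. Limma, with Benjamini-Hochberg adjustment over 11914 genes, called 2 of the 81 lower and 0 higher in the clones, where 3.08% of all genes were called lower and 2.67% higher. At an unadjusted p under 0.05 there were 11 lower and 13 higher, where 10.5% and 10% of all genes were. Of the 81 genes, 70 were above background on all arrays, 5 in parental cells alone and 5 in clones alone, so that some, including 1 of the 2 called, entered the test through 1 group alone. The median difference of the 81 genes was -0.046 on the log2 scale, against 0.011 over all genes. The only spread available is that between the clones, with 1 residual degree of freedom, and the test takes the same spread for parental cells, of which there is a single array.

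SLC6A9, the glycine transporter GlyT1, had signals of 129 for parental cells, 57.0 for clone 1 and 60.4 for clone 2. It was below background in both clones, so it was detected through parental cells alone, and the fold in parental cells over the clones is bounded at 1.71 or more. Limma called it lower (adjusted p = 0.0367, between 0.0204 and 0.0804 across the alternatives with a test), also without the filter on dim probes (adjusted p = 0.0204). The call was lost with an offset of 50 (adjusted p = 0.0804), without background correction (0.0691) and in the authors' processed table (0.0690), and with detection required on all arrays it had no test. Its other probes were below background on all arrays. No other of the 10 detected serine and glycine transporters was called, and SLC38A2, a sodium-coupled transporter of small neutral amino acids, differed by -0.15 (adjusted p = 0.802). None of the 10 other detected serine and glycine enzymes was called in the limma fit, and their median was -0.48. At an unadjusted p under 0.05, 1 of the 10 was higher and 2 were lower, where 10% and 10.5% of all genes were. The brightest of these under 2-fold, GRHPR, a glyoxylate and hydroxypyruvate reductase, was at -0.85 in clone 1 and 0.13 in clone 2. AGXT and GATM, the latter among those counted as lower, were above background in parental cells alone and entered the test through that group. The signals of GATM were 81.0 for parental cells, 51.9 for clone 1 and 55.0 for clone 2, so its count as lower is no support for a difference.

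Among 9 detected purine synthesis genes, ADSS1, an adenylosuccinate synthase, had signals of 671, 164 and 106. It fell 4.23-fold in clone 1 and 7.57-fold in clone 2 (limma adjusted p = 0.0373, between 0.0196 and 0.0524 across the alternatives with a test), and a dimmer ADSS1 probe differed by -0.72. PFAS, which uses glutamine in the fourth step of the purine pathway, had signals of 807, 1459 and 2105 and was 2.42-fold higher without a call (adjusted p = 0.103). PAICS, of the same pathway, differed by 0.058. The list had a median of 0.058, with 0 genes called higher. At an unadjusted p under 0.05, 2 of the 9 were higher and 1 was lower, against the same 10% and 10.5% of all genes.

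Limma called no gene of the remaining lists. Of 10 detected methionine and transsulfuration genes, with a median of -0.26, BHMT2, a homocysteine methyltransferase, had signals of 104, 231 and 358 and was 3.67-fold higher without a call (adjusted p = 0.0553, between 0.0334 and 0.0835 across the alternatives with a test). Its other probe differed by 1.27. MAT2B, a regulatory subunit of methionine adenosyltransferase, differed by -0.33. Among 12 other detected folate genes the median was 0.037, and MTHFS, which returns 5-formyltetrahydrofolate to the folate pool, differed by -0.046. FOLR1, a folate receptor, had signals of 885, 1177 and 578. FOLR1 and PSPH were the 2 of the 81 detected listed genes at least 2-fold lower in clone 2 than in clone 1. The share over all genes was 1.96%. For 15 genes of lipoate attachment and of the complexes that share DLD the median was -0.13, and GLRX5, a mitochondrial iron-sulfur cluster protein, differed by -0.44. Heme and glutathione genes had a median of 0.40 over 7 genes, with GCLM, the modifier subunit of glutamate-cysteine ligase, at 0.72 (adjusted p = 0.215). At an unadjusted limma p under 0.05, 3 of these 7 were higher and 1 was lower, GCLC at -0.75. Of all genes 10% were higher and 10.5% lower. In the methionine, folate and lipoate lists 1, 2 and 2 genes were higher, and 2, 1 and 1 were lower. The lower folate gene, PIPOX, had signals of 84.2 for parental cells, 53.4 for clone 1 and 61.7 for clone 2. It was above background in parental cells alone and entered the test through that group.

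Among 8 detected regulators the median was 0.081. ATF4, the transcription factor that induces serine synthesis genes when amino acids are short, had signals of 10148, 8303 and 9241 and differed by -0.072 (limma adjusted p = 0.909). SOX2, a transcription factor of stem and airway cells, had signals of 2335, 802 and 1007 and was 2.44-fold lower without a call (adjusted p = 0.0769, between 0.0539 and 0.0891 across the alternatives with a test), and its other probe differed by -1.13.

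**Figure D4:**
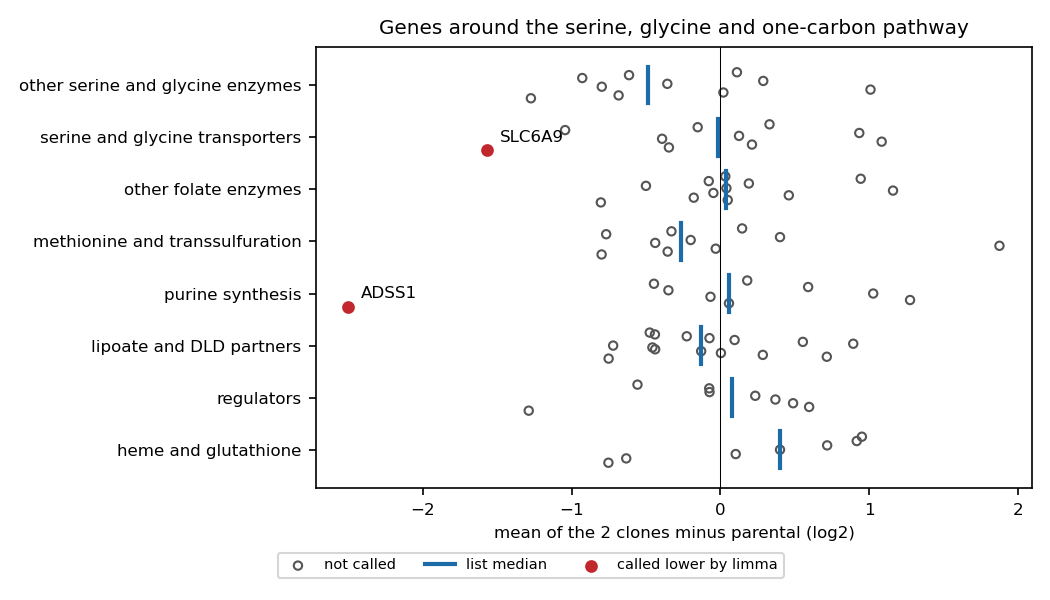
Mean of the clones minus parental cells on the log2 scale (horizontal axis) for the 81 detected genes of 8 lists around the pathway, 1 circle a gene, with blue bars at the list medians. The genes called lower by limma, SLC6A9 and ADSS1, are filled red, and list medians run from -0.48 to 0.40.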

How the data were processed

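Both deposited tables hold linear probe intensity for 48803 probes and 3 arrays. Per the labels' protocols, biotin-labelled RNA was hybridised to the arrays; no label names the bead-summary software. The non-normalized intensity, deposited without detection p-values or control probes, was corrected by normexp (limma 3.58.1, R 4.3.3, offset 16), taken to log2 and quantile-normalized. The authors' processed table is quantile-normalized in form (column medians 59.65, 59.66 and 59.66), linear, not centred, and correlated with the first at r of 0.99995 to 0.99999 on the log2 scale; its making is likewise not stated.

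Background was the mode of each array's log2 signals, with the spread below it as SD, and detection was a one-sided p under 0.01. Probes were named from the platform annotation, with symbols updated by Entrez ID through RefSeq: 28098 had 1 gene, 13 several and 20692 were not listed. Of named probes, 15792 were above background on at least 1 array, and the brightest probe stood for its gene, which left 11914 genes. Groups came from the labels. The wider lists were tested by limma (lmFit and eBayes, prior degrees of freedom 4.08, adjusted p threshold 0.05). The fit was also run on simulated arrays with an assumed spread, which checks the code and not the precision of these data. The number of arrays limits precision, and nothing says that the clones arose independently, so p-values measure the spread between these 2 arrays.

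The genes and lists were chosen with earlier results of these data known. Named by rule were the 10 genes; in each wider list, up to 4 genes at least 2-fold higher and 4 lower in both clones and the brightest under 2-fold; the 3 nearest detected genes on either side of GLDC; and the 5 most like it. Where a gene was below background in a group, a lower bound of its fold was computed against the lowest normalized signal above background there, and the lowest over the corrections and normalizations is given. Alternatives changed the background correction, normalization, table, filter, detection threshold, probe summary or clones used.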

Additional observations from a re-analysis of the deposited data

How the results depend on the processing

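GLDC was the 1 gene of the set at least 2-fold higher in both clones under each of the 10 alternatives. Where a clone was left out, only the remaining clone was counted, so GLDC, which passed in both, had to pass there as well. GLDC had 1 probe, above background on all arrays, so changes of filter, detection threshold or probe summary could not alter its difference. Its mean difference was 6.58 on the log2 scale, 5.90 with a normexp offset of 50, 6.03 without background correction and 6.03 in the authors' processed table, and 6.32 to 6.84 with a clone left out. Without correction the background stays in the parental signal, which is close to it, and a larger offset adds to that signal. The authors' table and the setting without correction gave nearly equal differences, for AMT -0.464 and -0.465, so they are not separate checks. How the authors' table was made is not stated. The count of genes at least 2-fold lower in both clones was 0, and 1 after median scaling, where MTHFD2 passed. With 1 clone left out that count ran from 0 to 1, AMT being the gene in clone 2. AMT was below background there, and its difference shrank with the offset of 50 or without correction. GLDC differed between the clones by 0.51 to 0.55. Of the wider lists, limma called 0 genes higher, and 1, BHMT2, without a filter on dim probes or with a detection p of 0.05; the cause was not tested. It called 2 lower, 1 with an offset of 50, without background correction, in the authors' table (ADSS1 in each) or with the mean of probes (SLC6A9), and 0 with probes above background on all arrays, where SLC6A9 was not tested. Over all genes limma called 318 higher and 367 lower, and 148 and 134 with probes above background on all arrays, where fewer genes were tested. With a clone left out, no residual degree of freedom remained and no test was run. The other 9 genes moved by more than the SD between the clones over all genes, 0.33, in 7 of 89 values. These were AMT with an offset of 50, without background correction and in the authors' table, and GCSH and PHGDH with either clone left out. Changes of filter or detection threshold kept the same probe for each gene, so those values could not move. The mean of probes altered GCSH and SHMT1 alone. The 7 of 89 is therefore no rate of stability. No paired analysis was possible because parental cells have 1 array and only the clones carry numbers.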
